A study of Mus musculus with 13 samples.

Results

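A set of 10 genes of the protein-folding machinery was followed through 13 hippocampal RNA-seq libraries. They were the small heat shock proteins Hspb1, Hspb6, Hspb8 and Cryab, the cochaperone Bag3, the inducible HSP70 genes Hspa1a and Hspa1b, the endoplasmic reticulum HSP70 Hspa5, the HSP110 gene Hsph1 and the HSP40 gene Dnajb1, 10 of 45777 genes in the count table. The 10 genes were chosen by name with the read counts of the 4 groups known, so their values, fold changes and calls are given as a description with no test.

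The groups were SE-cKO mice (Nestin-Cre::Lin28aloxP/loxP with pilocarpine-induced status epilepticus, n = 3), SE-WT mice (Nestin-Cre::Lin28a+/+ with pilocarpine, n = 3), sham-cKO mice (Nestin-Cre::Lin28aloxP/loxP with saline, n = 4) and sham-WT mice (Nestin-Cre::Lin28a+/+ with saline, n = 3). Hippocampi were taken on day 3. Mice were 6 weeks old at injection, and pilocarpine was given at 260 mg/kg to males and 280 mg/kg to females, after scopolamine methyl nitrate and terbutaline and before diazepam, with only animals that entered status epilepticus (SE) kept. All mice carried Nestin-Cre, which is active in neural progenitors and so reaches the neurons and glia that descend from them. Both genotypes had been backcrossed to C57BL/6N. The sex of a library was not labelled. Lin28a, the floxed gene, was counted 3 times in SE-WT replicate 3 and not once in the other 12 libraries, so the counts could not check the genotype labels.

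Chaperones bind unfolded or half-folded proteins. Small heat shock proteins hold them without using ATP, HSP70 proteins cycle them with ATP, J-domain proteins such as DNAJB1 deliver them to HSP70, and exchange factors such as HSPH1 and BAG3 make HSP70 let go. Genes of the cytosolic heat shock response are driven by HSF1, which binds alternating repeats of the blocks GAA and TTC (the heat shock element), and genes of the endoplasmic reticulum (ER) are driven by the unfolded protein response, in part through the ER stress element. In rat brain, the small heat shock protein HSPB1 is known from reactive astrocytes after seizures, and HSP70 from stressed neurons.

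The stretches of 150 bases before the RefSeq start of 5 of the genes show the letters in which the motifs of both responses were searched. They come from RefSeq on GRCm38.p6 and run 5′ to 3′, with capitals marking the heat shock motif (GAANNTTC or TTCNNGAA, each the same on both strands) or, in Hspa5, the CCAAT and CCACG blocks of the ER stress element set 9 bases apart.
Hspb1, chr5:135887769-135887918, plus strand: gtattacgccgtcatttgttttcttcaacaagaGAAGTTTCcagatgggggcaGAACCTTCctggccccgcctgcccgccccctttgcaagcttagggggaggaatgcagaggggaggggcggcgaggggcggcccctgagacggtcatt
Hspa1a, chr17:34972157-34972306, minus strand: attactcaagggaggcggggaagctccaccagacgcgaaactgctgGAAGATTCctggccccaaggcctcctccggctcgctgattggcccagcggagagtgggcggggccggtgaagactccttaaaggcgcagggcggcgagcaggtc
Hspa1b, chr17:34959239-34959388, minus strand: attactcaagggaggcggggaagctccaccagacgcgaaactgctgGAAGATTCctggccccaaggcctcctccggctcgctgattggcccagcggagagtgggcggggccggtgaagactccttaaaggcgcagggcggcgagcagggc
Hspa5, chr2:34771940-34772089, plus strand: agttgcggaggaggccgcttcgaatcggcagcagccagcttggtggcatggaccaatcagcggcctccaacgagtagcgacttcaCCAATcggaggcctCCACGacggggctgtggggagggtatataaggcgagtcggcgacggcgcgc
Dnajb1, chr8:83608025-83608174, plus strand: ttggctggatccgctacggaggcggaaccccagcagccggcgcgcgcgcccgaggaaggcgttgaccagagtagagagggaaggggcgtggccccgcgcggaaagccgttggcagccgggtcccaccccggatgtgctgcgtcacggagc
Hspb1 held the heat shock motif 2 times, starting 117 and 97 bases before its start. Hspa1a and Hspa1b each held it once, 104 bases before the start, in stretches that were identical at 99.3% of their bases. Hspa5 held no heat shock motif and the ER stress element from 65 to 47 bases before its start. Dnajb1 held neither in these letters.

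Windows from 250 bases before to 50 after the start were on hand for 9 of the 10 genes, all but Cryab. The heat shock motif was in the windows of 7 of these 9 genes, with that of Hspb6 at its second listed start and those of Hspb8 and Bag3 only after the start, at base 3 and base 43. Counted by gene in the same way, it was in the windows of 17.0% of all mouse genes (4587 of 27025) and of 16 of 82 other chaperone genes. Counted by window, it was in 15.1% of all mouse windows (4946 of 32851). The ER stress element, searched on both strands, was in 0.119% of all windows (39), and beside Hspa5 in those of Calr, Hsp90b1, Canx, Pdia6, Dnajc3 and Creld2 among the chaperone genes listed. A match is a string of letters and not a measured binding site.

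Some libraries held RNA of neighbouring regions. The summed CPM of 6 choroid plexus markers was 17.9 to 1193 in SE-cKO, 17.5 to 657 in SE-WT, 25.3 to 2672 in sham-cKO and 53.2 to 4426 in sham-WT, where sham-WT replicate 3 was the highest. The 6 striatal markers summed to 1115 CPM in SE-WT replicate 2, and 5 thalamic markers to 1259 CPM in sham-cKO replicate 2 and 708 CPM in SE-WT replicate 3. Library totals were 59659977 to 84354243 read counts, and pairs of replicates differed by 51.3 to 467.6 times the variance that sampling alone would give. SE-cKO replicate 3 and SE-WT replicate 3 carried titles of another pattern than the other 11 libraries and the highest shares of mitochondrial rRNA, 3.92% and 4.83% against 0.486% to 1.66% elsewhere.

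In length-scaled units (TPM, the deposited values), the genes spanned a wide range of levels. In SE-cKO hippocampi the order of mean TPM was Hspa5 at 299.8 ± 97.8, Hspb1 at 142 ± 119.8, Hsph1 at 111 ± 52.6, Cryab at 109 ± 59.2, Hspb8 at 42.7 ± 3.79, Hspa1b at 22.2 ± 21.8, Hspa1a at 20.8 ± 21.0, Dnajb1 at 16.1 ± 4.31, Hspb6 at 8.47 ± 5.98 and Bag3 at 4.50 ± 2.18 (SD, n = 3). Hspb1, Hsph1 and Cryab lay within one another's spread there, and the wide SDs of Hspa1a and Hspa1b reached both Hspb8 above and Dnajb1 below them. In sham-WT hippocampi the order was Hspa5 at 154 ± 27.1, Hsph1 at 78.5 ± 7.65, Cryab at 40.9 ± 2.91, Dnajb1 at 15.6 ± 1.19, Hspb8 at 13.1 ± 1.62, Hspa1b at 4.15 ± 0.393, Hspa1a at 3.74 ± 0.156, Hspb1 at 3.52 ± 0.208, Bag3 at 1.27 ± 0.239 and Hspb6 at 0.581 ± 0.399 (SD, n = 3). Neighbours that lay within their summed SDs there were Dnajb1 and Hspb8, Hspa1b and Hspa1a, and Hspa1a and Hspb1. Hspb1 stood eighth of the 10 in sham-WT and second in SE-cKO, while Hspa5 stood first in both.

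**Figure D1:**
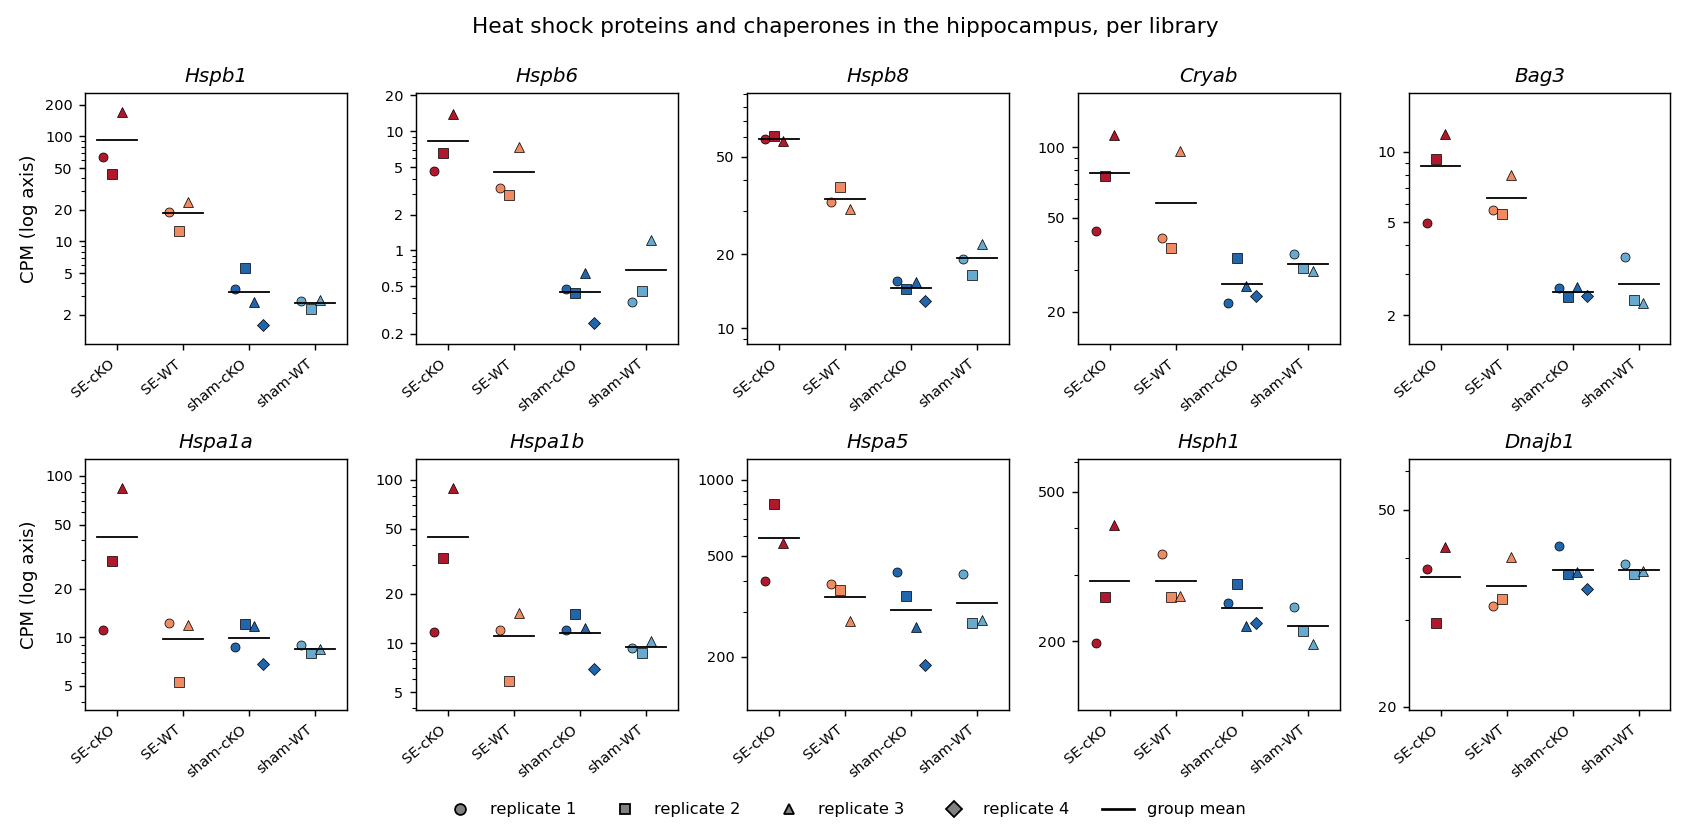
Level of each gene in CPM (read counts scaled to library size, log axis with a scale of its own in each panel) in the 13 libraries. Marker shape gives the replicate number and the black line the group mean; Hspb1, Hspb8 and Hspa5 have every SE-cKO library above every SE-WT library, and for the HSP70 pair SE-cKO replicate 1 lies within the range of the sham libraries.

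All values from here on are CPM (read counts scaled to library size by TMM over the 13 libraries) unless a log2 fold change is named, and CPM are compared between groups and not between genes. Hspb1 (chromosome 5, 135887919 to 135889563 of GRCm38), the small heat shock protein also called HSP25 or HSP27, was at 64.1, 43.6 and 171 CPM in SE-cKO, against 19.1, 12.7 and 23.6 CPM in SE-WT. It was at 3.50, 5.63, 2.65 and 1.59 CPM in sham-cKO and 2.73, 2.26 and 2.77 CPM in sham-WT. The SE libraries of both genotypes lay above every sham library, and all 3 SE-cKO libraries lay above all 3 SE-WT libraries, with SE-cKO replicate 3 far above the other 2. The fitted log2 fold change, here and below followed by ± its standard error, was 4.77 (± 0.57, 27.3-fold) in SE-cKO against sham-cKO and 2.81 (± 0.26, 7.002-fold) in SE-WT against sham-WT. Without SE-cKO replicate 3 the value in SE-cKO against sham-cKO was 4.01. Between SE-cKO and SE-WT it was 2.31 (± 0.52), and 1.49 without SE-cKO replicate 3. The summed CPM of 7 astrocyte markers, Gfap and Aqp4 among them, was 9398 to 9722 in SE-cKO, 5702 to 6043 in SE-WT, 1521 to 1724 in sham-cKO and 1574 to 1699 in sham-WT, the order that Hspb1 took after SE, and its part in the Hspb1 value was not tested. In SE-cKO against SE-WT, 6 of the 7 had fitted values above 0, while Gja1 averaged 181 CPM in SE-cKO and 268 CPM in SE-WT. The sum of 3 oligodendrocyte precursor markers took the same order after SE, at 281 to 338 CPM in SE-cKO and 198 to 253 CPM in SE-WT. So did that of the smooth muscle and pericyte markers given below. The part of these sums in the Hspb1 value was not tested either. In whole-tissue RNA, more cells of a type and more RNA per cell cannot be told apart.

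Some of these counts may be shared with a near copy. Hsp25-ps1 (chromosome 13, 45078370 to 45079184), a processed pseudogene of Hspb1, is identical to it at 99.4% of 630 aligned bases, and 56.3% of the 100-base stretches of the Hspb1 transcript are also in the pseudogene. It was listed at 4.24, 2.58 and 20.6 CPM in SE-cKO, 1.18, 0.936 and 2.67 CPM in SE-WT, 0.255, 0.373, 0.136 and 0.0655 CPM in sham-cKO and 0.185, 0.221 and 0.152 CPM in sham-WT. These are small beside Hspb1 in every library, and which gene the reads came from cannot be told from the table.

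Hspb6 (chromosome 7, 30552535 to 30555443), a small heat shock protein best known from muscle, was at 4.63, 6.53 and 13.9 CPM in SE-cKO, against 3.35, 2.93 and 7.42 CPM in SE-WT. It was at 0.474, 0.435, 0.641 and 0.246 CPM in sham-cKO and 0.370, 0.456 and 1.23 CPM in sham-WT. Each SE library lay above each sham library, while the 2 SE groups overlapped. The log2 fold change was 4.18 (± 0.46, 18.1-fold) in SE-cKO against sham-cKO and 2.72 (± 0.60, 6.58-fold) in SE-WT against sham-WT, from sham counts of only 15 to 73 per library. Between SE-cKO and SE-WT it was 0.84 (± 0.52), and it ranged from 0.24 without SE-cKO replicate 3 to 1.37 without SE-WT replicate 3. Sham-WT replicate 3, the sham library highest in Hspb6, was also the one highest in choroid plexus RNA, whose part in the Hspb6 value was not tested. Without it the value in SE-WT against sham-WT was 3.43, and that in sham-cKO against sham-WT was 0.12 where it was -0.59 with all libraries. For 7 markers of smooth muscle cells and pericytes, cells in which Hspb6 is abundant, the summed CPM was 252 to 368 in SE-cKO, 127 to 245 in SE-WT, 158 to 193 in sham-cKO and 169 to 172 in sham-WT, and their part in the Hspb6 value was not tested. These markers did not move alike. In SE-cKO against sham-cKO, 6 of the 7 had fitted values above 0. Tagln averaged 118 CPM in SE-cKO and 2.40 CPM in sham-cKO, and Rgs5 125 and 114 CPM. Myh11 went the other way, at 5.34 and 12.9 CPM.

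Hspb8 (chromosome 5, 116408491 to 116422864), the small heat shock protein that works with BAG3 to send aggregated proteins to autophagy, was at 59.0, 60.4 and 58.0 CPM in SE-cKO, against 32.6, 37.5 and 30.6 CPM in SE-WT. It was at 15.6, 14.4, 15.4 and 12.9 CPM in sham-cKO and 19.2, 16.5 and 22.1 CPM in sham-WT. No pair of groups overlapped, sham-WT replicate 3 was the highest sham library here too, and sham-cKO lay below sham-WT, opposite to the order after SE. The spread was the narrowest of the 10 genes in SE-cKO, with an SD of 1.20 CPM around 59.2 CPM. The log2 fold change was 1.99 (± 0.11) in SE-cKO against sham-cKO, 0.78 (± 0.16) in SE-WT against sham-WT, 0.78 (± 0.15) in SE-cKO against SE-WT and -0.39 (± 0.12) in sham-cKO against sham-WT.

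Cryab (chromosome 9, 50745951 to 50756636), which encodes αB-crystallin, a small heat shock protein found in oligodendrocytes and astrocytes, was at 44.1, 75.4 and 113 CPM in SE-cKO, against 41.2, 37.3 and 95.9 CPM in SE-WT. It was at 21.9, 33.7, 25.7 and 23.4 CPM in sham-cKO and 35.1, 30.5 and 29.8 CPM in sham-WT. The SE libraries lay above the sham libraries of their own genotype, and the 2 SE groups overlapped. In both SE groups replicate 3 was the highest. The log2 fold change was 1.54 (± 0.29) in SE-cKO against sham-cKO and 0.84 (± 0.35) in SE-WT against sham-WT, where it was 0.30 without SE-WT replicate 3. The summed CPM of 6 oligodendrocyte markers was 7738 in SE-WT replicate 3 and 2623 to 5091 in the other 12 libraries, and its part in the Cryab value was not tested. Between SE-cKO and SE-WT the log2 fold change of Cryab was 0.39 (± 0.45), and it ranged from -0.01 without SE-cKO replicate 3 to 0.94 without SE-WT replicate 3. Cryab overlaps Hspb2 on the opposite strand (chromosome 9, 50751072 to 50752354), which was at 0.123 to 0.689 CPM over the 13 libraries, and the strand setting of the counting is not given in the sources used here.

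Bag3 (chromosome 7, 128523583 to 128546981), the HSP70 exchange factor that partners HSPB8, was at 4.96, 9.30 and 11.9 CPM in SE-cKO, against 5.64, 5.40 and 7.96 CPM in SE-WT. It was at 2.61, 2.39, 2.65 and 2.41 CPM in sham-cKO and 3.54, 2.32 and 2.26 CPM in sham-WT. All SE libraries lay above all sham libraries, and the 2 SE groups overlapped. The log2 fold change was 1.76 (± 0.29) in SE-cKO against sham-cKO, 1.20 (± 0.28) in SE-WT against sham-WT and 0.43 (± 0.36) in SE-cKO against SE-WT, the last being 0.12 without SE-cKO replicate 3.

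Hspa1a (chromosome 17, 34969359 to 34972156), one of the pair of stress-inducible HSP70 genes, was at 11.04, 29.8 and 84.7 CPM in SE-cKO, against 12.3, 5.33 and 11.9 CPM in SE-WT. It was at 8.68, 12.1, 11.8 and 6.80 CPM in sham-cKO and 8.92, 7.99 and 8.52 CPM in sham-WT. SE-cKO replicates 2 and 3 stood above the other 11 libraries, and SE-cKO replicate 1 did not. The log2 fold change was 2.05 (± 0.57) in SE-cKO against sham-cKO, or 1.05 without SE-cKO replicate 3, and 0.18 (± 0.31) in SE-WT against sham-WT. Between SE-cKO and SE-WT it was 2.07 (± 0.70), and 1.01 without SE-cKO replicate 3.

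Hspa1b (chromosome 17, 34956429 to 34959238), the other gene of the pair, was at 11.8, 33.4 and 89.2 CPM in SE-cKO, against 12.04, 5.84 and 15.3 CPM in SE-WT. It was at 11.96, 15.02, 12.3 and 6.98 CPM in sham-cKO and 9.32, 8.68 and 10.3 CPM in sham-WT. The same 2 libraries were high as for Hspa1a, and the ratio of Hspa1a to Hspa1b counts stayed between 0.726 and 1.02 in all libraries. The transcripts share 47.1% of the 100-base stretches of Hspa1a, so how reads were split between the genes is uncertain. Summed into 1 feature, the pair had a log2 fold change of 1.99 (± 0.56) in SE-cKO against sham-cKO, 0.19 (± 0.31) in SE-WT against sham-WT and 2.03 (± 0.70) in SE-cKO against SE-WT. Without SE-cKO replicate 3, Hspa1b alone had 0.97 against sham-cKO and 0.98 against SE-WT.

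The library with the most HSP70 RNA also had the most immediate early gene RNA. The summed CPM of 10 immediate early genes, such as Fos and Arc, which mark recent neuronal firing, was 289.9, 338 and 1311 in SE-cKO and 489, 157 and 856 in SE-WT, against 154.8 to 330.4 in sham-cKO and 219 to 295 in sham-WT. SE-cKO replicate 3, at 1311 CPM of immediate early genes, had 174 CPM of Hspa1a and Hspa1b together, while SE-WT replicate 3, at 856 CPM, had 27.2 CPM, where the sham libraries ran from 13.8 to 27.2 CPM. SE-cKO replicate 2 had 63.2 CPM of the pair at 338 CPM of immediate early genes. The part of the immediate early genes, of the title pattern and of mitochondrial rRNA in the HSP70 values was not tested.

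**Figure D2:**
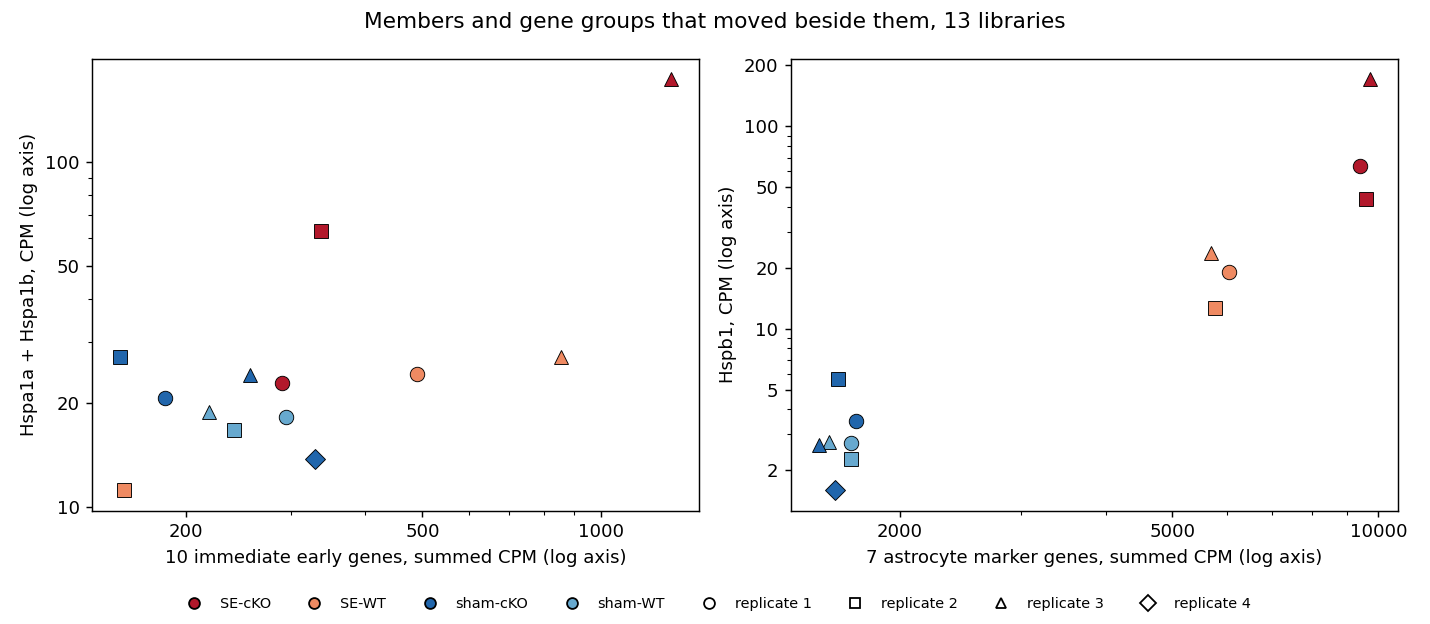
Left, summed CPM of Hspa1a and Hspa1b against summed CPM of 10 immediate early genes; right, CPM of Hspb1 against summed CPM of 7 astrocyte markers, 1 point per library on log axes, with colour for the group and shape for the replicate. SE-cKO replicate 3 is highest on both axes of both panels, and the SE-cKO, SE-WT and sham libraries form 3 bands in the right panel.

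Hspa5 (chromosome 2, 34772090 to 34776529) encodes BiP, the HSP70 of the ER and the sensor that holds the unfolded protein response in check. It was at 398, 804 and 562 CPM in SE-cKO, against 387, 366 and 277 CPM in SE-WT. It was at 432, 347, 262 and 185 CPM in sham-cKO and 423, 272 and 279 CPM in sham-WT. All SE-cKO libraries lay above all SE-WT libraries, replicate 1 by a margin of only 398 to 387 CPM, and SE-cKO overlapped sham-cKO. The log2 fold change was 0.91 (± 0.31) in SE-cKO against sham-cKO, 0.06 (± 0.22) in SE-WT against sham-WT and 0.74 (± 0.28) in SE-cKO against SE-WT. Without SE-cKO replicate 2, the last was 0.46.

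Hsph1 and Dnajb1 had the smallest log2 fold changes of the 10 genes in SE-cKO against sham-cKO, and the window of Hsph1 holds the heat shock motif. Hsph1 (chromosome 5, 149616843 to 149636498), the HSP110 exchange factor of HSP70, was at 198, 262 and 406 CPM in SE-cKO, 341, 262 and 265 CPM in SE-WT, 254, 285, 219.6 and 224 CPM in sham-cKO and 247, 214 and 197 CPM in sham-WT. The log2 fold change of Hsph1 was 0.21 (± 0.23) in SE-cKO against sham-cKO. In SE-WT against sham-WT it was 0.37 (± 0.15), and every SE-WT library lay above every sham-WT library. SE-cKO held both the lowest SE library and the highest, and its log2 fold change against SE-WT was -0.03 (± 0.28), or -0.38 without SE-cKO replicate 3. Dnajb1 (chromosome 8, 83608175 to 83612653), the J-domain protein that feeds substrates to inducible HSP70, was at 38.05, 29.5 and 42.1 CPM in SE-cKO, 32.0, 33.1 and 40.2 CPM in SE-WT, 42.2, 37.0, 37.5 and 34.7 CPM in sham-cKO and 38.8, 37.1 and 37.7 CPM in sham-WT. Its log2 fold changes were -0.08 (± 0.14) in SE-cKO against sham-cKO and -0.14 (± 0.13) in SE-WT against sham-WT.

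**Figure D3:**
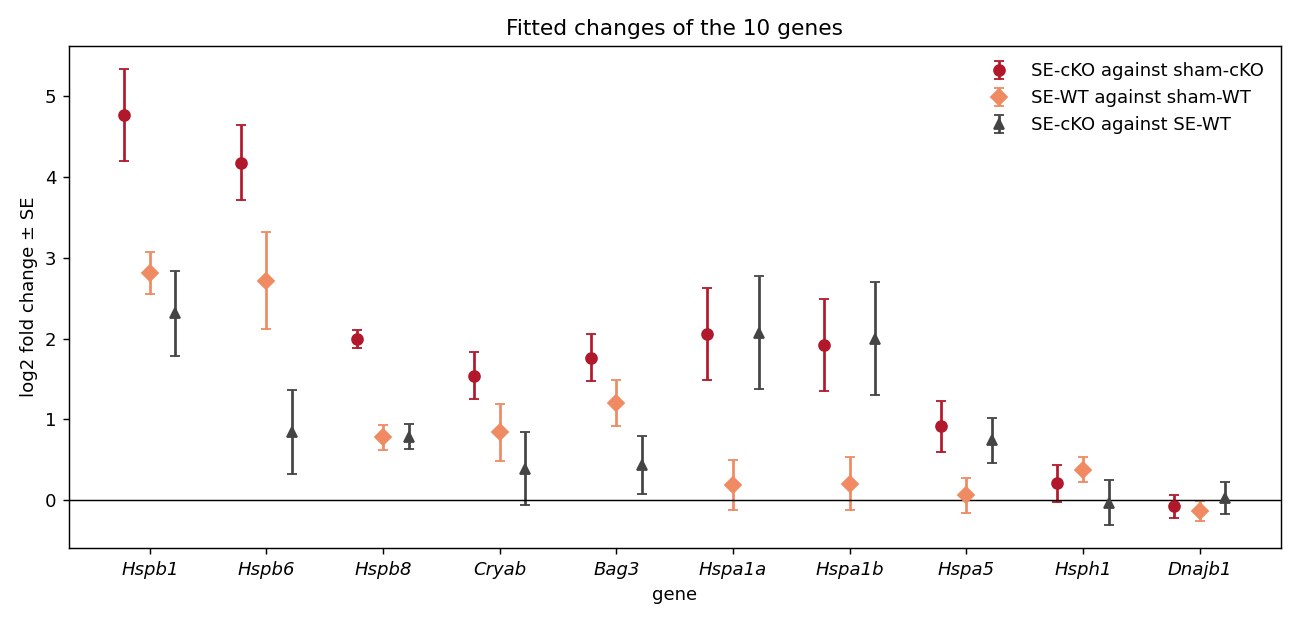
Fitted log2 fold change of each gene in SE-cKO against sham-cKO, SE-WT against sham-WT and SE-cKO against SE-WT, with bars for 1 standard error. Values run from 4.77 for Hspb1 in SE-cKO against sham-cKO down to -0.14 for Dnajb1 in SE-WT against sham-WT.

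Across the 10 genes, which all passed the count filter, the median log2 fold change was 1.84 in SE-cKO against sham-cKO, 0.58 in SE-WT against sham-WT, 0.76 in SE-cKO against SE-WT and -0.03 in sham-cKO against sham-WT. The medians over all genes tested lay between -0.001 and 0.02 in these comparisons. In edgeR's quasi-likelihood test over all genes, an adjusted p under 0.05 was reached in the higher direction by 7 of the 10 in SE-cKO against sham-cKO (all but Hspa5, Hsph1 and Dnajb1), beside 13.8% of all genes (8.92% in the lower direction, none of them members). In SE-WT against sham-WT it was reached by 3 (Hspb1, Hspb6 and Hspb8), beside 4.57% of all genes (0.832% lower). Since the genes were chosen on these counts, nothing is read from these shares. Of the called genes, Hspa1a and Hspa1b lost their call without SE-cKO replicate 2, without SE-cKO replicate 3 or without any 1 sham-cKO library, and Hspb6 and Hspb8 lost theirs in SE-WT in 4 and 5 of the 6 fits that left out a library, while Hspb1 kept both its calls in every alternative run. Without the 3 libraries with striatal or thalamic RNA, the 10 genes had a median log2 fold change of the same sign in both SE comparisons.

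Between SE-cKO and SE-WT, 0 of the 10 genes passed in edgeR, and 0% of all 21126 genes passed in either direction. An unadjusted p under 0.05 was reached by 5 of the 10, all of them higher, and by 2046 of all 21126 genes in either direction. DESeq2 called 3 of the 10, all of them higher, and 307 higher and 228 lower of all. The 3 genes with each SE-cKO library above each SE-WT library were Hspb1, Hspb8 and Hspa5, beside 9.3% of all genes. Between sham-cKO and sham-WT, 0 of the 10 and 0% of all genes passed in either direction in edgeR, and DESeq2 called 0 of the 10. An unadjusted p under 0.05 in edgeR was reached by 1 of the 10 (Hspb8, lower) and by 1152 of all genes in either direction. The interaction, which subtracts the response to SE in WT from that in cKO, was 1.96 (± 0.67) for Hspb1, 1.46 (± 0.76) for Hspb6, 1.22 (± 0.18) for Hspb8, 1.87 (± 0.75) for Hspa1a, 0.86 (± 0.43) for Hspa5 and -0.17 (± 0.30) for Hsph1 on the log2 scale. Without SE-cKO replicate 3 it was 1.12 for Hspb1 and 0.78 for Hspa1a, and without sham-WT replicate 3 it was 0.72 for Hspb6. It passed for 1 of the 10 (Hspb8), beside 0.0841% of all genes in the higher and 0.0752% in the lower direction, and that call was lost in 13 of 21 alternatives.

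The other members of these families were then tested with all genes. Of 102 chaperone genes listed by family, with earlier results of these data known, 97 were tested in SE-cKO against sham-cKO, where 14 rose and 7 fell and the median was 0.02 on the log2 scale. In SE-WT against sham-WT, 1 of 96 rose and 3 fell, and the median was -0.09. The shares, 14.4% higher and 7.22% lower in cKO and 1.04% higher and 3.13% lower in WT, stand beside the 13.8%, 8.92%, 4.57% and 0.832% of all genes.

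**Figure D4:**
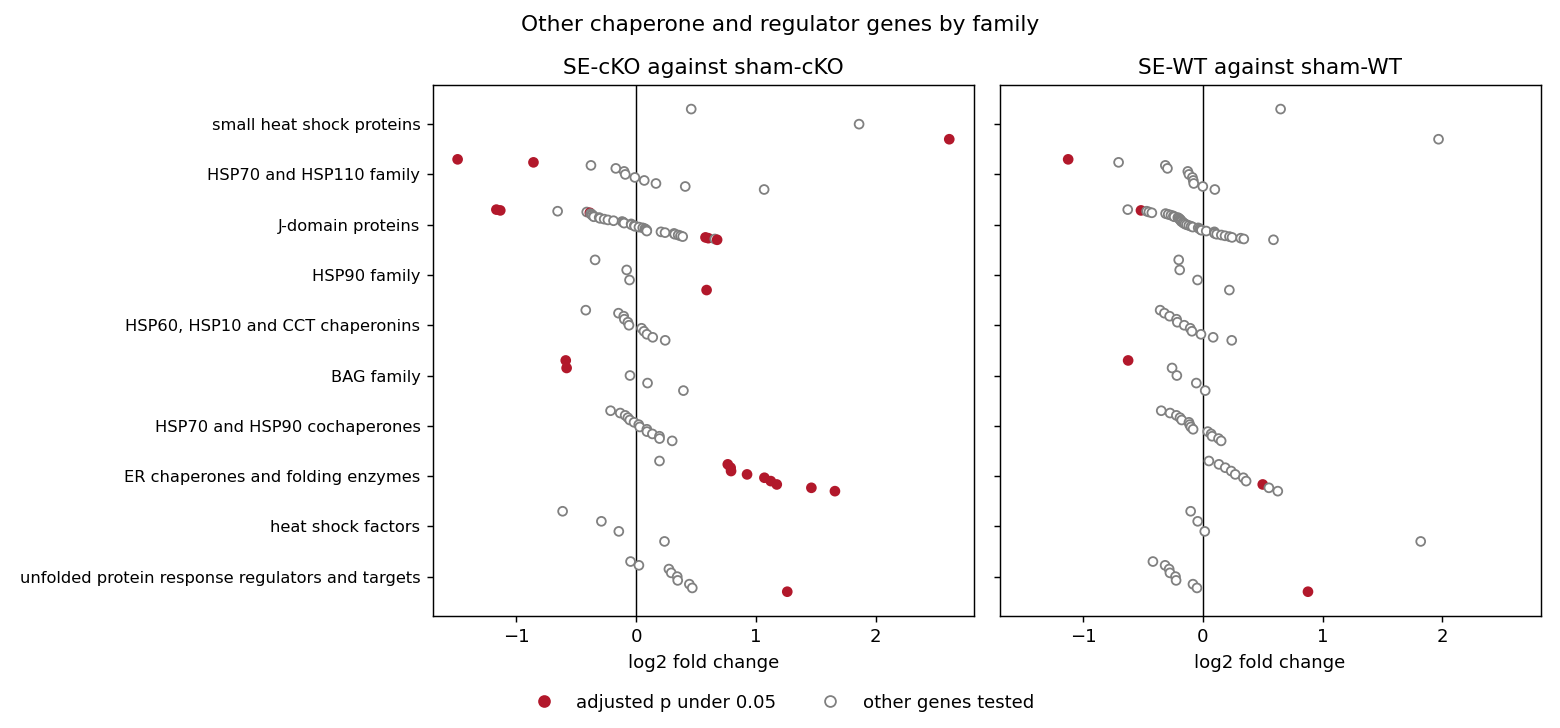
Log2 fold changes of the other chaperone genes and of the regulators by family, in SE-cKO against sham-cKO (left) and SE-WT against sham-WT (right), 1 point per gene tested, filled where the adjusted p was under 0.05. Of the 10 ER chaperones and folding enzymes, 9 are filled on the left and 1 on the right, while the chaperonins and the cochaperones have no filled point.

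The ER list, which holds the folding enzymes that work beside BiP, accounted for 9 of the 14 rises in SE-cKO, and its 10 genes had 1.00 as their median log2 fold change. Serpinh1, the collagen chaperone HSP47, was at 66.7, 53.2 and 51.4 CPM in SE-cKO against 20.8, 16.9, 19.5 and 13.7 CPM in sham-cKO, a log2 fold change of 1.66 (± 0.17, adjusted p = 3.21e-04 in edgeR). P4hb, a protein disulfide isomerase, was at 262, 315 and 208 CPM in SE-cKO against 105 to 124 CPM in sham-cKO, with a log2 fold change of 1.17 (± 0.15, adjusted p = 8.02e-04). Pdia3, a disulfide isomerase that acts on glycoproteins, had one of 0.79 (± 0.13, adjusted p = 0.00314). No SE-cKO library of Serpinh1 or P4hb overlapped a sham-cKO library. For 5 markers of fibroblasts and meninges, cells that use Serpinh1, the summed CPM was 139 to 278 in SE-cKO, 45.6 to 149 in SE-WT, 76.4 to 166 in sham-cKO and 85.5 to 142 in sham-WT, and their part in the Serpinh1 value was not tested. In SE-WT against sham-WT, P4hb was the single one of the 96 other chaperone genes that rose, at 183, 186 and 168 CPM against 128, 118 and 126 CPM, with a log2 fold change of 0.50 (± 0.11, adjusted p = 0.0475 in edgeR). That call was lost without sham-WT replicate 1, 2 or 3 or SE-WT replicate 1. All 10 ER genes had fitted values above 0 in both genotypes.

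Outside the ER list, 5 genes rose in SE-cKO, and 3 of them encode proteins that also work in the ER. These were Hsp90b1, the HSP90 of the ER (0.59 ± 0.18, adjusted p = 0.0484 in edgeR), Dnajc3 (0.60 ± 0.12, adjusted p = 0.00901) and Dnajb11 (0.58 ± 0.12, adjusted p = 0.0104), both J-domain proteins that work with BiP. The others were the J-domain gene Dnajc25 (0.68 ± 0.20, adjusted p = 0.0380) and the small heat shock gene Hspb3 (2.61 ± 0.56, adjusted p = 0.0113), which averaged 1.88 ± 0.792 CPM in SE-cKO (SD, n = 3) and 0.299 ± 0.180 CPM in sham-cKO (SD, n = 4), from only 6 to 39 read counts per sham-cKO library. The cytosolic workhorses were not called. Hspa8, the constitutive HSP70, averaged 2126 ± 248 CPM in SE-cKO (SD, n = 3) and 2239 ± 335 CPM in sham-cKO (SD, n = 4), with a log2 fold change of -0.10 (± 0.15, adjusted p = 0.695). Hsp90aa1 had one of -0.34 (± 0.14, adjusted p = 0.115) and Hsp90ab1 of -0.06 (± 0.16, adjusted p = 0.850). In SE-WT against sham-WT the values were -0.31 (± 0.15, adjusted p = 0.291) for Hspa8, -0.20 (± 0.15, adjusted p = 0.507) for Hsp90aa1, -0.04 (± 0.23, adjusted p = 0.940) for Hsp90ab1 and 0.22 (± 0.17, adjusted p = 0.511) for Hsp90b1.

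The genes that fell were in the HSP70, J-domain and BAG families. In SE-cKO against sham-cKO, Hspa12a, a distant HSP70 relative, averaged 112 ± 8.82 CPM in SE-cKO (SD, n = 3) and 310.2 ± 31.5 CPM in sham-cKO (SD, n = 4), a log2 fold change of -1.49 (± 0.12, adjusted p = 1.05e-04 in edgeR). Dnajc6, the auxilin that helps HSP70 strip clathrin from vesicles in neurons, had -1.17 (± 0.13, adjusted p = 5.07e-04) and Dnajc27 -1.14 (± 0.16, adjusted p = 0.00169). Hspa4l (-0.86 ± 0.16, adjusted p = 0.00535), Bag4 (-0.58 ± 0.10, adjusted p = 0.00493), Bag5 (-0.59 ± 0.11, adjusted p = 0.00744) and Dnajb14 (-0.39 ± 0.11, adjusted p = 0.0402) also fell. In SE-WT against sham-WT, Hspa2 (-1.12 ± 0.17, adjusted p = 0.0142), Bag4 (-0.62 ± 0.12, adjusted p = 0.0317) and Dnajc27 (-0.52 ± 0.10, adjusted p = 0.0362) fell. None of the 3 calls in WT held without sham-WT replicate 1, 2 or 3 or SE-WT replicate 1, when the count was 0. Of 7 neuron and 4 granule cell markers, 3 and 3 were called lower in SE-cKO against sham-cKO, beside 8.92% of all genes. In SE-WT against sham-WT, 0 and 2 were, beside 0.832%. In SE-cKO, 1 granule cell marker had a fitted value above 0. The granule cell markers summed to 140 to 162 CPM in SE-cKO and 79.1 to 181 CPM in SE-WT. In sham-cKO and sham-WT the sums were 226 to 318 and 218 to 273 CPM. The part of these markers in the falls was not tested.

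The 13 regulators listed (heat shock factors, and regulators and targets of the unfolded protein response) gave 1 call in each genotype. It was the same gene, called higher, beside 13.8% of all genes in cKO and 4.57% in WT. The 9 unfolded protein response genes had a median log2 fold change of 0.34 in SE-cKO against sham-cKO, with 8 above 0. In SE-WT against sham-WT their median was -0.23, with only Edem1 above 0. Edem1, which draws misfolded glycoproteins into ER-associated degradation, was at 91.7, 87.3 and 70.7 CPM in SE-cKO against 30.4, 33.8, 31.9 and 40.3 CPM in sham-cKO, with a log2 fold change of 1.26 (± 0.14, adjusted p = 4.26e-04 in edgeR). In SE-WT it was at 69.1, 54.5 and 62.6 CPM against 29.1, 36.0 and 34.3 CPM in sham-WT (0.88 ± 0.14, adjusted p = 0.0160). Hsf1, the driver of the cytosolic heat shock response, averaged 15.9 ± 3.56 CPM in SE-cKO (SD, n = 3) and 13.2 ± 2.37 CPM in sham-cKO (SD, n = 4), with a log2 fold change of 0.24 (± 0.20, adjusted p = 0.462). In SE-WT against sham-WT Hsf1 had 0.02 (± 0.20, adjusted p = 0.978), and Hsf2 had -0.15 (± 0.15, adjusted p = 0.564) in cKO and -0.10 (± 0.14, adjusted p = 0.735) in WT. These are RNA levels, and HSF1 is switched on as a protein.

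Between SE-cKO and SE-WT, 0 of 96 other chaperone genes and 0 of 13 regulators passed in edgeR. At an unadjusted p under 0.05 there were 10 higher and 4 lower chaperone genes, 6 of the 10 in the ER list, and 4 higher and 1 lower regulators, and DESeq2 called 2 chaperone genes higher and 1 lower and 0 regulators. The smallest p values were those of Serpinh1 (log2 fold change 0.95, adjusted p = 0.284 in edgeR), Sdf2l1 (0.91, adjusted p = 0.337) and Manf (0.58, adjusted p = 0.347), all of the ER list. Between sham-cKO and sham-WT, 0 of 96 passed in edgeR and 0 in DESeq2, and Dnajb14 alone stood under an unadjusted p of 0.05 (log2 fold change 0.30, adjusted p = 0.868 in edgeR), followed by Hspa12a (0.21, adjusted p = 0.868) and Hsf5 (1.37, adjusted p = 0.868). The interaction passed for 0 of 97 in edgeR, with 13 higher and 5 lower at an unadjusted p under 0.05 and 3 higher and 1 lower in DESeq2. The smallest p values were those of Serpinh1 (1.30, adjusted p = 0.0789 in edgeR), Dnajb11 (0.66, adjusted p = 0.147) and P4hb (0.68, adjusted p = 0.17). Of the 10 ER genes, 8 were higher at an unadjusted p under 0.05 and DESeq2 called 2, while none passed in edgeR. Over all 22596 genes tested for the interaction, 2834 had an unadjusted p under 0.05 in either direction in edgeR. DESeq2 called 357 of all genes higher and 363 lower.

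Markers of microglia and neurons also differed between the groups. The summed CPM of 7 microglia markers was 1004 to 1517 in SE-cKO, 855 to 1074 in SE-WT, 227 to 252 in sham-cKO and 245 to 257 in sham-WT. Among the astrocyte, microglia, smooth muscle and fibroblast lists no marker was at 0 in any library, and the part of these lists in the chaperone values was not tested. The 7 general neuron markers, which check the tissue, summed to 3313 to 4665 CPM in SE-cKO, 3843 to 5255 CPM in SE-WT and 5276 to 6155 CPM in the sham groups.

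The genes whose profile over the 13 libraries lay closest to each member were found by the root mean square difference of log2 CPM, each gene centred on its sham mean, among 15901 genes. Nearest to Hspb1 were its pseudogene (0.35) and Serpinf2 (0.38), which averaged 20.9 ± 7.63 CPM in SE-cKO, 4.93 ± 1.17 CPM in SE-WT, 0.706 ± 0.367 CPM in sham-cKO and 0.741 ± 0.136 CPM in sham-WT (SD, n = 3 or 4). Nearest to Hspb8 was Cd151 (0.15), at 71.4 ± 10.6, 43.5 ± 2.18, 18.7 ± 1.17 and 21.7 ± 2.72 CPM in the same 4 groups, followed by Acot1 (0.18). Hspa1a and Hspa1b were nearest to each other (0.14), and next to both stood Chac1 (0.42), which was at 2.501, 6.57 and 18.9 CPM in SE-cKO and 2.74 to 3.67 CPM in the other 10 libraries. Nearest to Hspa5 were the ER genes Pdia6 (0.19) and Creld2 (0.25), both of which also hold the ER stress element. The closest genes were Ecm1 (0.54) and Tagln2 (0.54) for Hspb6, Hmga1b (0.28) and Fth1 (0.29) for Cryab, Selplg (0.30) and Slc39a1 (0.31) for Bag3, Arhgef7 (0.16) and Yipf3 (0.16) for Hsph1, and Senp3 (0.08) and Otud5 (0.08) for Dnajb1.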

How the data were processed

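Read counts, FPKM and TPM per gene were deposited for 45777 genes in 13 libraries. Per the labels and the study's methods, the authors made stranded total-RNA libraries (TruSeq), ran bcl2fastq 2.20.0 and then Trimmomatic on the reads, mapped these with HISAT2 2.1.0 (mm10) and quantified genes by StringTie 2.1.3b. How strand was set and how multi-mapping reads were handled are not given in the sources used here. Deposited counts were the main values, deposited TPM served for levels between genes and 1 alternative, and deposited FPKM were not used. Counts were filtered with filterByExpr (minimum count 10, minimum total 15), scaled by TMM and compared with edgeR 4.0.16 (robust quasi-likelihood test, R 4.3.3), 2 groups per fit and all 13 libraries for the interaction, with Benjamini-Hochberg adjustment over all genes tested and a threshold of 0.05. The edgeR fits of the 4 pairs of groups and of the interaction were tested on simulated data.

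The members and lists were chosen with earlier results of these data known. Named genes were the 10 members, Hsf1, Hsf2, Hspa8, Hsp90aa1, Hsp90ab1 and Hsp90b1, up to 3 genes per list and comparison with the smallest p among those called (or the 3 smallest p values where nothing was called) and the 2 nearest profiles per member. Other chaperone genes named in counts of calls were added after their values were seen. Alternatives were RLE size factors, no filter, DESeq2 1.42.0, limma 3.58.1 on log2(TPM + 1), all 4 groups in 1 fit (as such, with Xist level, without the 2 libraries of another title pattern, or without 3 libraries with many striatal or thalamic reads), a replicate block, the summed HSP70 pair, and each library left out. Replicates were labelled as biological. Depth is high, so precision rests on 3 or 4 mice per group. The labels give no pairing by replicate number, and same-numbered libraries' deviations correlated at -0.07 to 0.26. The best-correlated library had the same number in some cases and another number in others. The main fits did not use the numbers as pairs.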

Additional observations from a re-analysis of the deposited data

Results flagged for a closer look

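Hspb8 was the 1 gene of the 10 with an adjusted p under 0.05 for the interaction of genotype and SE in edgeR. Because the 10 genes were chosen with these counts known, its values are a description and no test of a difference between the genotypes. The interaction was 1.22 on the log2 scale (± 0.18, its standard error), with Hspb8 at 59.2 ± 1.20 CPM in SE-cKO (SD, n = 3) against 14.6 ± 1.22 CPM in sham-cKO (SD, n = 4), and at 33.6 ± 3.52 CPM in SE-WT against 19.3 ± 2.78 CPM in sham-WT (SD, n = 3 each). Part of the interaction came from the sham groups, where the log2 fold change of Hspb8 in sham-cKO against sham-WT was -0.39. The value stayed between 0.99 and 1.27 over 21 alternatives, but the call was lost in 13 of them, among them the fits without any 1 sham library, without SE-WT replicate 2 or without SE-cKO replicate 2. No library stood far from the rest of its group by Dixon's criterion, which was applied to the 10 genes in the group of 4 libraries; groups of 3 were not examined.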

How the results depend on the processing

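No called fold change of the 10 genes turned its sign, the median of the 10 in sham-cKO against sham-WT (-0.03) did so in 6 alternatives, and the counts of calls were the least stable values. For SE-WT against sham-WT, the 1 other chaperone gene called higher became 0 with no low-count filter and with limma on TPM, and 2 with DESeq2, with all 4 groups in 1 fit, with Xist level, without the 2 libraries of another title pattern and without 3 libraries with many striatal or thalamic reads. The 3 called lower became 5 with DESeq2, 6 with Xist level and 0 with limma. Leaving out 1 library gave 0 to 1 higher and 0 to 3 lower. For SE-cKO against sham-cKO, the 7 called lower became 13 with DESeq2 and 11 without the 2 libraries of another title pattern, and leaving out 1 library gave 11 to 15 higher and 6 to 9 lower. For SE-cKO against SE-WT, 0 called became 2 higher and 1 lower with DESeq2, 2 higher with Xist level, 2 higher without the 2 libraries of another title pattern and 1 higher with all 4 groups in 1 fit, and stayed 0 when 1 library was left out. For the interaction, 0 became 3 higher and 1 lower with DESeq2, 2 higher without the 2 libraries of another title pattern and 0 to 2 when 1 library was left out. The cause was not tested.

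The median log2 fold change of the 10 genes in SE-WT against sham-WT was 0.38 without the 2 libraries of another title pattern and 0.37 to 0.64 when 1 library was left out. In SE-cKO against sham-cKO it was 1.12 without those 2 libraries and 1.12 to 2.05 when 1 library was left out, the lowest without SE-cKO replicate 3.

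With the replicate block, other chaperone genes called numbered 0 higher and 1 lower in SE-WT against sham-WT and 9 higher and 3 lower in SE-cKO against sham-cKO. The numbers are no pairing by design. Of 249 values for the lists and medians under the alternatives, 212 stayed within the range set, and 37 moved. Counts were low in the sham groups for Hspb6, at 15 to 73 per library, and in sham-cKO for Hspb3, at 6 to 39.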
